A study of Mus musculus with 6 samples.

Results

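Genes of glutathione metabolism, of the NRF2 response to electrophiles and oxidants, and of the response to foreign compounds (xenobiotics) were measured in Braf-mutant mouse melanoma cells of the line 4434. The set holds 44 genes: 2 regulators, 7 NRF2 targets and thiol redox genes, 4 genes of glutathione synthesis and recycling, 4 glutathione peroxidases, 16 glutathione transferases, 5 genes of the aryl hydrocarbon receptor pathway and 6 aldo-keto reductases. A probe set of the array counted for a gene when the platform annotation assigned it to that gene alone. This gave 65 of 34945 single-gene probe sets, and they measured 40 of the 44 genes, out of 18193 genes in all. Prdx1 was covered only by 5 probe sets that another gene shares and Gsta1 by 1 such probe set, and for Prdx6 and Akr1b3 no probe set was listed in the annotation used here. These 4 genes were not tested.

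Cells were profiled at day 20 of partial reprogramming on 6 Affymetrix arrays, 3 per group. Cells of both groups carried the same pair of vectors. A lentiviral vector holds murine Oct4, Sox2 and Klf4 and a blasticidin resistance gene behind a doxycycline-responsive element, and a further lentiviral vector with mCherry supplies the transactivator that responds to doxycycline. The + dox cells were given doxycycline and selected with blasticidin from day 3, and the − dox cells were kept in medium without doxycycline, so doxycycline, selection and the 3 factors cannot be told apart in this comparison. The methods list 2-mercaptoethanol, a thiol reductant, in the standard and in the reprogramming medium, and do not say which of these media the − dox cells were kept in. It is not stated in the labels or methods whether the samples of a group were grown separately, and p-values therefore cover only the variation among these samples, part or all of which may be technical. All values below are log2 RMA values, on which a difference of 1 is a 2-fold change. Changes are + dox minus − dox with the SE of the limma fit, p-values are adjusted over all 18193 genes, and a gene was called at an adjusted p under 0.05.

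Glutathione is the main small thiol of the cell. Glutamate-cysteine ligase and glutathione synthetase make it, peroxidases use it to reduce peroxides, transferases attach it to electrophiles, and glutathione reductase restores it. KEAP1 holds the transcription factor NRF2 (gene Nfe2l2) for degradation until electrophiles modify cysteines of KEAP1, after which NRF2 activates many of these genes through antioxidant response elements, whereas the aryl hydrocarbon receptor binds planar foreign compounds and activates cytochrome P450 genes through xenobiotic response elements. In melanoma and other tumours these systems are studied for their part in oxidative stress and in the handling of drugs.

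The array medians lay between 5.33 and 5.37, and the lower quartile over all values was 3.88. Limma called 0 of 12 melanocyte markers, with 0 at an unadjusted p under 0.05, and their mean level over these cells labelled as melanoma ran from percentile 10.5 of all genes for Tyr to 52.0 for Mitf. Sox10 lay at percentile 47.3 and Pmel at 37.9, and Mlana, Gpr143 and Tyrp1 at 11.6, 11.4 and 14.6. Limma also called 0 of the 3 genes that the vector carries, of which 2 had an unadjusted p under 0.05: Pou5f1 (Oct4) had a change of 0.75 (adjusted p = 0.0566), Sox2 one of −0.71 (adjusted p = 0.113) and Klf4 one of −0.58 (adjusted p = 0.450), and whether their probe sets detect transcripts of the vector was not tested. The array + dox 1 correlated with the other + dox arrays at r = 0.9839 to 0.9867 over probe sets and with a − dox array at up to 0.9860, while + dox 2 and 3 correlated at 0.9944. On the other side − dox 1 stood at 0.9844 to 0.9848 with its own group, where − dox 2 and 3 correlated at 0.9970. Results that rest on + dox 1 or − dox 1 are therefore also given without them.

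Of the 40 measured genes, 4 rose and 1 fell in + dox cells. The genes that rose were Mgst3, a microsomal glutathione transferase, Nqo1, the NRF2 target that reduces quinones, Gss, glutathione synthetase, and Tiparp, an ADP-ribosyltransferase induced by the aryl hydrocarbon receptor. Akr1c13, an aldo-keto reductase, fell. The 4 risen genes are 10% of the measured genes, against 3.07% of all genes called higher, and the 1 fallen gene is 2.50%, against 1.80% of all genes called lower. The set was chosen with earlier results of these data known, so its shares in this report are a description and not a test. Probe set by probe set, 7 of 65 were called higher (10.8%, against 2.34% of all single-gene probe sets) and 1 was called lower (1.54%, against 1.31%). The 7 belong to the same 4 risen genes, of which Tiparp and Gss count more than once. Before adjustment, 16 of the 40 genes had a p under 0.05, as did 3942 of all 18193 genes. The median change was 0.12 over the 40 genes and 0.01 over all genes. Of the 40 changes 28 were positive, as were 9272 of the 18193 changes of all genes. The groups did not overlap in 12 genes that were higher in + dox, which is 30.0% of the 40 against a background of 14.3%, and in 2 that were lower, which is 5.0% against 12.6%. Of the 12, only the 4 risen genes were called. Some gaps between the lowest + dox and highest − dox array were narrow: 13.45 and 13.42 in Txn1, 5.81 and 5.77 in Akr1c18. In Akr1c14 they were 2.80 and 2.76, under the lower quartile.

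**Figure D1:**
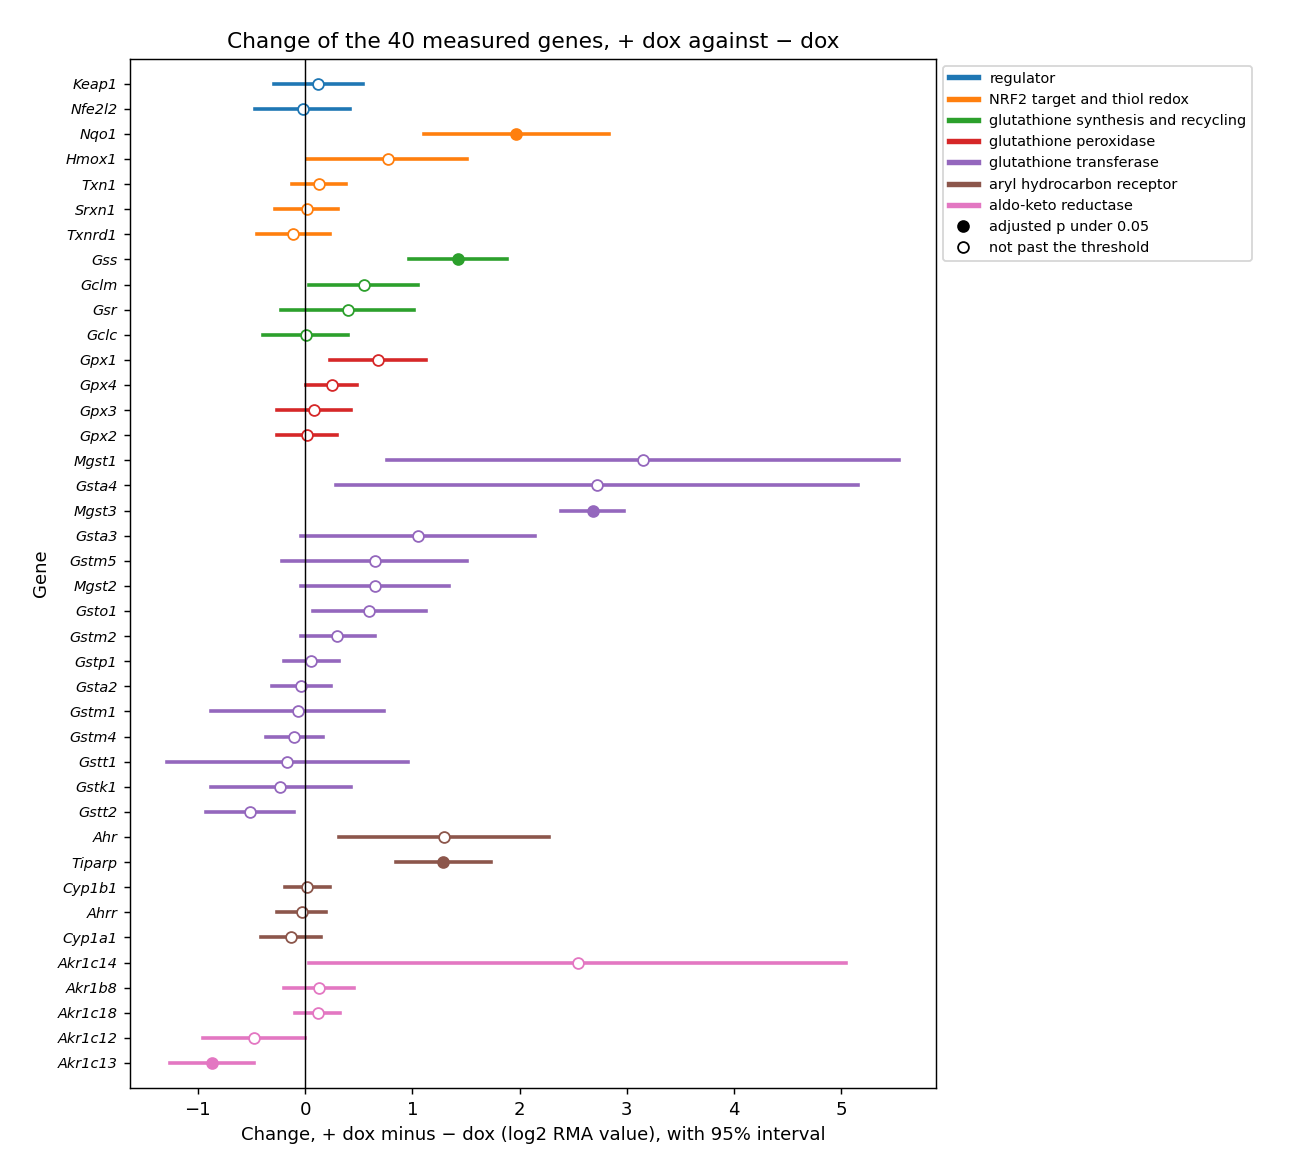
Change of the 40 measured genes, + dox minus − dox (horizontal axis, log2 RMA value), with the 95% interval of the limma fit as a bar, genes on the vertical axis coloured by role. Filled points are the 5 genes past the threshold, and the widest intervals belong to Mgst1, Gsta4 and Akr1c14.

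Mgst3 had the smallest adjusted p-value of the 40 genes. Its product attaches glutathione to lipophilic electrophiles and reduces lipid hydroperoxides at membranes. It stood at 10.95, 11.24 and 11.13 in + dox arrays 1, 2 and 3 and at 8.27, 8.51 and 8.51 in − dox arrays 1, 2 and 3. The groups lay far apart, with each group within a narrow range. The change was 2.68 (SE 0.12, 95% interval 2.39 to 2.97), a 6.39-fold rise (adjusted p = 0.000292), and it passed the test in each of the 6 fits that left out 1 array (adjusted p of 0.00472 or less). In a bulk culture, more cells with the transcript and more transcript per cell cannot be told apart. The other Mgst3 probe set ranged from 4.89 to 5.55 against 4.49 to 4.92 and the groups overlapped, with a change of 0.52 (adjusted p = 0.219 over probe sets). With the mean of both probe sets in place of the brighter one, the Mgst3 change was 1.60 (adjusted p = 0.00573).

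Gss encodes the enzyme that adds glycine in the last step of glutathione synthesis. Values of 8.49, 8.75 and 9.17 were measured in the + dox arrays against 7.20, 7.52 and 7.41 in the − dox arrays. Every + dox array lay above every − dox array, and the rise was 1.43 (SE 0.19, 2.69-fold, adjusted p = 0.0158). Its other probe set gave 7.49, 7.84 and 8.26 against 6.54, 6.64 and 6.38, with a rise of 1.34 (adjusted p = 0.0242 over probe sets). The call of Gss was lost without + dox 2 (adjusted p = 0.0722), − dox 2 (0.0631) or − dox 3 (0.0790), each time in a fit with fewer arrays.

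Nqo1 is a widely used readout of NRF2 activity and is also a target of the aryl hydrocarbon receptor. The + dox arrays read 6.49, 7.17 and 7.99, and the − dox arrays 5.04, 5.36 and 5.34. The groups did not overlap, but the + dox values were spread, with + dox 3 highest and + dox 1 lowest (7.22 ± 0.75, SD, n = 3). Nqo1 rose by 1.97 (SE 0.36, 3.92-fold, adjusted p = 0.0348). Its call was lost in more fits than any other of the 5: among those without 1 array, only the fit without + dox 1 kept it (2.33, adjusted p = 0.00734), and the other 5 fits without 1 array had changes of 1.58 to 2.03 with adjusted p = 0.0506 to 0.129.

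Tiparp modifies proteins with ADP-ribose and limits the activity of the aryl hydrocarbon receptor. Its level was 11.31, 11.88 and 11.66 in the + dox arrays and 10.30, 10.12 and 10.56 in the − dox arrays. No array of one group reached the other group. The rise was 1.29 (SE 0.18, 2.45-fold, adjusted p = 0.0179), and the other Tiparp probe sets gave 1.21 (adjusted p = 0.0401 over probe sets) and 1.25 (0.0173). The adjusted p of Tiparp lay between 0.0598 and 0.0847 without + dox 2, + dox 3, − dox 2 or − dox 3.

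Akr1c13 belongs to the aldo-keto reductases that reduce steroids and other carbonyl compounds with NADPH. It was measured at 6.13, 5.86 and 6.10 in + dox and at 6.64, 6.88 and 7.18 in − dox cells. All + dox arrays lay below all − dox arrays, and Akr1c13 fell by 0.87 (SE 0.16, adjusted p = 0.0366). The same 4 arrays decided this call, since the adjusted p lay between 0.112 and 0.134 without any of them.

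**Figure D2:**
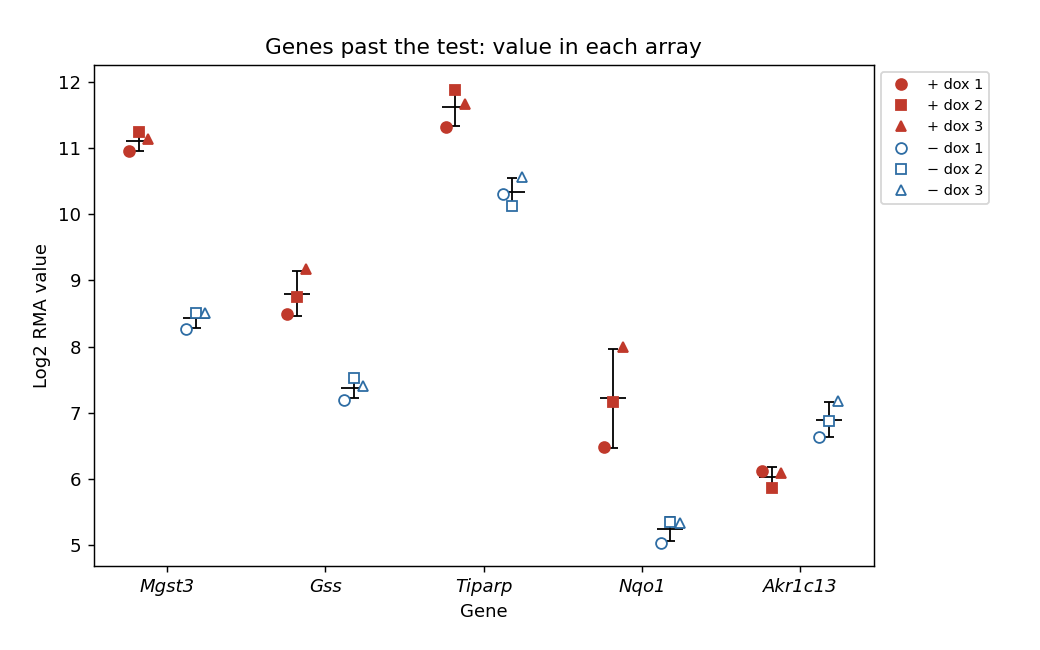
The 5 genes past the threshold (horizontal axis) with the log2 RMA value of each array (vertical axis); filled red symbols are + dox, open blue symbols − dox, and black lines the mean ± SD of 3 arrays. Mgst3, Gss, Tiparp and Nqo1 lie higher in every + dox array and Akr1c13 lies lower, and the + dox values of Nqo1 run from 6.49 to 7.99.

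Promoters are shown for the 5 called genes, for Mgst1, which had the largest change of the 40 genes without being called, and for Ahrr, a target of the aryl hydrocarbon receptor at the low end of the scale. Each window holds the 250 bases before a transcription start in RefSeq (GRCm38.p6), read 5′ to 3′ on the strand of the gene, and the table held 44 windows for 36 of the 44 genes. Capitals mark the letters of the motifs searched on both strands, the antioxidant response element core TGACNNNGC and the xenobiotic response element core GCGTG, which reads CACGC where it lies on the opposite strand. The Akr1c13 window lies before a transcript start that is not the start of the gene model, and the others lie before it. For Mgst1 the window at the start of the gene is printed, and a further one of its windows holds neither motif.
Mgst3 (chr1:167393842-167394091, minus strand): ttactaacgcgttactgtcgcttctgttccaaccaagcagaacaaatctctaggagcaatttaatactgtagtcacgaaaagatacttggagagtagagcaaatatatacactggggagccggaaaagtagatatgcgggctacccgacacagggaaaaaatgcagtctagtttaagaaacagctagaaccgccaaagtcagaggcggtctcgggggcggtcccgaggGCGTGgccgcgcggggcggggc
Gss (chr2:155592811-155593060, minus strand): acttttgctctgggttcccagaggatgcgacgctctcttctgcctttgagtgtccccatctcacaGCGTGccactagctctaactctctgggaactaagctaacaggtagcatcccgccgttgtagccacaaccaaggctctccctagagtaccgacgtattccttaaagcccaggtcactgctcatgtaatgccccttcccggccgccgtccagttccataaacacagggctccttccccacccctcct
Nqo1 (chr8:107403206-107403455, minus strand): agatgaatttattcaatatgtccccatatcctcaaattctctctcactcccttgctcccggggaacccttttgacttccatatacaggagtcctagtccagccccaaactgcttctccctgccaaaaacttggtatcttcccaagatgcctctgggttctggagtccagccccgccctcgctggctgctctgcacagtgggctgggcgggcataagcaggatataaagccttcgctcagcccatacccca
Tiparp (chr3:65528197-65528446, plus strand): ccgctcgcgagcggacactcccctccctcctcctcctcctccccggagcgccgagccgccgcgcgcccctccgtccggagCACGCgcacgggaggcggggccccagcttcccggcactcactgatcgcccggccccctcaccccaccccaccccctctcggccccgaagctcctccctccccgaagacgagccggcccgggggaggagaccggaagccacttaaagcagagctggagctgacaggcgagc
Akr1c13 (chr13:4190937-4191186, plus strand): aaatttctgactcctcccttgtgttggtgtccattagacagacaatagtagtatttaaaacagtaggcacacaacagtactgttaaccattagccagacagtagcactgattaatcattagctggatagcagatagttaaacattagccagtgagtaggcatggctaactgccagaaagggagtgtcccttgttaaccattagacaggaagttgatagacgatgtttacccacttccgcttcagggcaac
Mgst1 (chr6:138140277-138140526, plus strand): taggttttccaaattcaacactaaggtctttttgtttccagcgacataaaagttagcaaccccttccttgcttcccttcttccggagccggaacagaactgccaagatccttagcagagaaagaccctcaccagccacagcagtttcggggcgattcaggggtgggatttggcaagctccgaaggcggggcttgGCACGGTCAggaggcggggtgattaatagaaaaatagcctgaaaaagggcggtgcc
Ahrr (chr13:74292332-74292581, minus strand): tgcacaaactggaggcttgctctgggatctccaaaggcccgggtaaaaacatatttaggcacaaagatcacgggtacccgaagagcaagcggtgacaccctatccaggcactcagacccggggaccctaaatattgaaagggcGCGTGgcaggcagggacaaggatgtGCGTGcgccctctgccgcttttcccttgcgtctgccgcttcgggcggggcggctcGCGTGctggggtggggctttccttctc
GCGTG stood 22 bases before the start in Mgst3, 185 bases in Gss, 170 bases in Tiparp (as CACGC), and 27, 82 and 107 bases in Ahrr. TGACNNNGC stood 56 bases before the start of Mgst1 on the opposite strand, as GCACGGTCA. Neither motif lay in the windows of Nqo1 and Akr1c13, which says only that these letters are not in these windows.

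Over all windows of the gene set, TGACNNNGC lay in 7 of 44 (15.9%; Gsta3, Nfe2l2, Gstm5, Gclm, Prdx1, Mgst1 and Txnrd1) and in 3338 of 32851 windows of all genes (10.2%). GCGTG lay in 23 of 44 windows (52.3%, 18 genes) and in 9250 of all windows (28.2%). Windows of one gene can overlap, as those of Gpx4, Gstm1 and Gstm4 do, the motifs can overlap each other, as they do in Gstm5, and base composition was not matched, so these shares are a description of letters.

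Limma called 0 of the 2 regulators, and 0 had an unadjusted p under 0.05. Nfe2l2, the gene of NRF2, was measured at 10.23, 10.92 and 10.63 in + dox and 10.75, 10.60 and 10.50 in − dox cells. The groups overlapped, and the change was −0.02 with a 95% interval of −0.47 to 0.42 (adjusted p = 0.965). A dimmer Nfe2l2 probe set had a change of −0.37 (adjusted p = 0.715 over probe sets) and its highest value, 7.16, in − dox 1. For Keap1, the sensor that binds NRF2, the change was 0.12 (interval −0.29 to 0.54, adjusted p = 0.756), and its other probe set had −0.03. The mRNA of a regulator does not report how much of its protein is in the nucleus, which these arrays do not measure.

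Among 5 measured NRF2 targets and thiol redox genes, 1 rose (Nqo1), 0 fell, and the median change was 0.13. Hmox1, heme oxygenase, read 8.32, 8.49 and 8.56 in + dox and 8.37, 7.63 and 7.07 in − dox cells. The groups overlapped through − dox 1, and the change of 0.77 (SE 0.31, interval 0.02 to 1.51) was not called (adjusted p = 0.217). Txn1, thioredoxin, was higher in each + dox array (13.45 to 13.47 against 13.16 to 13.42), yet by only 0.13 (adjusted p = 0.532). Thioredoxin reductase, Txnrd1, had a change of −0.11 (interval −0.45 to 0.23). Srxn1, the sulfiredoxin that repairs overoxidised peroxiredoxins, had 0.02 (interval −0.28 to 0.31), and its 4 probe sets had changes from −0.02 to 0.11. For both genes the interval lay within a 2-fold change in either direction, the range of −1 to 1.

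Of the 4 genes that make and restore glutathione, 1 rose (Gss), 0 fell, and the median change was 0.48. Gclc, the catalytic subunit of glutamate-cysteine ligase, lay between 8.79 and 9.37 in + dox and between 9.02 and 9.24 in − dox cells, with a change of 0.01 (interval −0.39 to 0.40, adjusted p = 0.991). Gclm, the modifier subunit of the same enzyme, stood at 9.77, 9.23 and 9.92 against 8.86, 9.33 and 9.09. The groups overlapped in + dox 2 and − dox 2, and its change was 0.55 (SE 0.21, adjusted p = 0.197), with 0.30 in the other probe set. Glutathione reductase, Gsr, read 10.21, 10.06 and 10.39 against 9.22, 10.17 and 10.06, where − dox 1 was the lowest array, and its change was 0.40 (interval −0.22 to 1.02, adjusted p = 0.440).

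None of the 4 glutathione peroxidases was called by limma, and 2 had an unadjusted p under 0.05 and did not overlap between the groups. Of all 18193 genes, 3942 had such a p, and 14.3% did not overlap and were higher in + dox. Gpx1, the cytosolic enzyme, stood at 12.83, 12.96 and 13.10 in + dox and 11.88, 12.43 and 12.53 in − dox cells. Its change was 0.68 (SE 0.19, interval 0.23 to 1.13, adjusted p = 0.0946). Gpx4, which reduces peroxidised phospholipids and protects cells from ferroptosis, read 11.85, 11.85 and 11.78 against 11.45, 11.67 and 11.62. All + dox arrays were higher, by 0.25 (interval 0.01 to 0.48, adjusted p = 0.209), and the other probe set had 0.27. Gpx2, known from the gut epithelium, and Gpx3, a secreted form, had changes of 0.02 and 0.08 with adjusted p-values of 0.942 and 0.808.

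The 15 measured glutathione transferases held 1 called gene, Mgst3, and had a median change of 0.30 with values from −0.51 to 3.15. Of these genes, 5 had an unadjusted p under 0.05, as did 3942 of all 18193 genes. In the alpha class, Gsta4, whose product conjugates the lipid peroxidation product hydroxynonenal, had the largest change, 2.72, which was not called (adjusted p = 0.184). Gsta3 had one of 1.05 (adjusted p = 0.245) and its other probe set 0.26, and Gsta2 one of −0.04 (adjusted p = 0.904). Every array of Gsta2 and both group means of Gsta3 lay under the lower quartile of 3.88, so no fold is given for them.

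In the mu class, Gstm5 stood at 8.63, 9.22 and 8.86 in + dox and 9.08, 7.93 and 7.75 in − dox cells. Only − dox 1 reached the + dox range, and the change was 0.65 (SE 0.36, adjusted p = 0.368). Gstm1, Gstm2 and Gstm4 had changes of −0.07, 0.30 and −0.10, with adjusted p-values of 0.939, 0.295 and 0.685. The mu genes are close in sequence, and cross-hybridisation between them was not tested. Gstp1, the pi class enzyme that is abundant in many tumours, lay between 12.09 and 12.40 in all 6 arrays and had a change of 0.06 (interval −0.20 to 0.32). Gsto1, the omega class enzyme, read 11.96, 11.42 and 12.26 against 11.47, 11.23 and 11.14. The groups overlapped through + dox 2 and − dox 1, and the change was 0.60 (SE 0.22, adjusted p = 0.181).

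In the theta class, Gstt2 was lower in each + dox array, at 3.78, 3.90 and 3.77 against 3.95, 4.47 and 4.56, with a change of −0.51 (adjusted p = 0.150) close to the lower quartile. Gstt1 had a change of −0.17 with a wide interval of −1.29 to 0.96, and Gstk1, the kappa class enzyme of mitochondria and peroxisomes, one of −0.23 (−0.88 to 0.43). The membrane enzyme Mgst2, which can also make leukotriene C, read 7.38, 7.82 and 8.58 against 7.18, 7.38 and 7.27. Its + dox 1 array equalled − dox 2, and the change of 0.65 (SE 0.29) was not called (adjusted p = 0.260). Mgst1, the widely expressed microsomal transferase, had a change of 3.15 (SE 1.0, interval 0.76 to 5.54) that was not called (adjusted p = 0.131).

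Among the 5 genes of the aryl hydrocarbon receptor pathway, 1 rose (Tiparp), 0 fell, and the median change was 0.02. Ahr, the receptor itself, stood at 8.11, 9.0 and 8.25 in + dox and 7.98, 6.54 and 6.95 in − dox cells. The groups did not overlap, but − dox 1 came within 0.13 of + dox 1, and the change was 1.30 (SE 0.41, interval 0.32 to 2.27, adjusted p = 0.128), with 0.11 in a dimmer probe set. Cyp1a1, the classic inducible target of the receptor, read 3.88, 4.19 and 4.15 against 4.12, 4.29 and 4.20. Both groups of Cyp1a1 were near the lower quartile, with a change of −0.13 (interval −0.41 to 0.15, adjusted p = 0.598). Cyp1b1, another target that oxidises oestrogens and polycyclic hydrocarbons, had a change of 0.02 (interval −0.19 to 0.23). It too was near the lower quartile (3.95 to 4.10 over all arrays), and its other probe sets had changes of −0.23 and 0.02. Ahrr, the repressor that the receptor induces, lay under the lower quartile in every array (3.16 to 3.37) and had a change of −0.03 (adjusted p = 0.919).

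Of the 5 measured aldo-keto reductases, 0 rose, 1 fell (Akr1c13), and the median change was 0.12. Akr1c12, a close relative of Akr1c13, read 7.85, 7.97 and 8.15 against 8.04, 8.68 and 8.68. The groups overlapped in − dox 1, and the change was −0.48 (SE 0.20, adjusted p = 0.227). Akr1c18, which inactivates progesterone, was higher in each + dox array but by only 0.12 (interval −0.09 to 0.33, adjusted p = 0.490). Akr1b8, a reductase of lipid aldehydes related to aldose reductase, had a change of 0.13 (adjusted p = 0.652). Akr1c14, a hydroxysteroid dehydrogenase, had one of 2.54 (SE 1.05, adjusted p = 0.224). Of the 35 genes that were not called, 22 had a 95% interval within −1 to 1. Among the 22, Gsta2 and Ahrr lay under the lower quartile in every array, and Gstt2, Cyp1a1 and Cyp1b1 lay near it. Values are compressed there, so for these genes a narrow interval does not bound the change.

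The + dox arrays were far apart from each other in a few of these genes. The SD of the + dox arrays was over 1 in 3 of the 40 genes (7.50%: Gsta4, Mgst1 and Akr1c14) and in 206 of all 18193 genes (1.13%), and that of the − dox arrays was over 1 in 0 of the 40 genes and in 135 of all genes (0.742%). Gsta4 stood at 5.01, 7.40 and 9.46 in + dox arrays 1, 2 and 3 and at 4.53, 4.86 and 4.33 in the − dox arrays. Mgst1 stood at 5.94, 8.62 and 9.87 against 6.04, 4.30 and 4.64. For Akr1c14 the values were 2.80, 5.49 and 7.40 against 2.70, 2.76 and 2.61. In each of the 3 genes + dox 3 was the highest and + dox 1 the lowest + dox array, an order also found in 115 of the 206 genes with such an SD (55.8%). Set against the − dox mean, + dox 1 was higher by 0.44 in Gsta4, 0.95 in Mgst1 and 0.11 in Akr1c14, whereas + dox 3 was higher by 4.89, 4.88 and 4.71. The − dox arrays of Akr1c14 all lay under the lower quartile of 3.88, where values are compressed, so its differences are approximate and no fold is given.

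Gsta3 had the same order at a lower level, with 2.95, 3.32 and 4.82 against 2.60 to 2.71. Among markers of other cells, Itgam, a macrophage and granulocyte integrin, also had its highest value in + dox 3 (3.51, 3.95 and 5.84 against 3.20 to 3.33), while Ptprc, the pan-leukocyte marker, lay between 2.78 and 3.08 in all arrays. Of the macrophage markers, Cd68 had the same order in the + dox arrays (6.40, 7.06 and 7.12) and Adgre1 the opposite one (4.38, 4.28 and 4.18). The 6 measured immune markers had a mean level per array of 4.60 to 5.08 in + dox and of 4.22 to 4.60 in − dox, and limma called 0 of them, with 0 at an unadjusted p under 0.05. The 4 hepatocyte markers, from a tissue rich in these enzymes, had mean levels of 4.79 to 4.86 and 4.77 to 4.85, the 7 fibroblast markers 4.81 to 4.85 and 4.76 to 4.81, and the 4 endothelial markers 4.83 to 5.35 and 4.29 to 4.56, with 0 genes called by limma in each and 0, 1 and 1 at an unadjusted p under 0.05. The endothelial one with such a p was Tek, which was highest in + dox 1 (7.01, 4.58 and 4.49 against 3.58 to 3.87). Of 7 keratinocyte markers, whose mean levels were 5.26 to 5.41 and 4.66 to 4.81, 1 rose, Krt14 (3.67, adjusted p = 0.00173), and the part of any of these cell types in the result was not tested. A second Mgst1 probe set, dim in every array (3.12 to 3.60), had a change of 0.05.

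**Figure D3:**
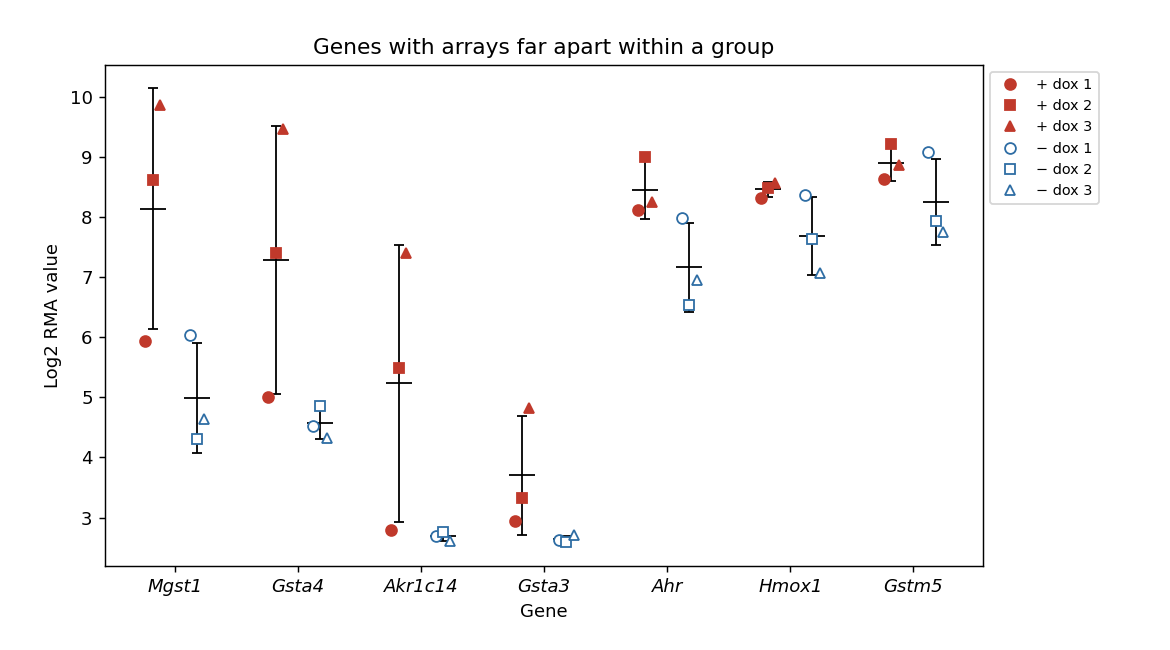
Genes with arrays far apart within a group (horizontal axis), with the log2 RMA value of each array (vertical axis); filled red symbols are + dox, open blue symbols − dox, and black lines the mean ± SD of 3 arrays. In Mgst1, Gsta4, Akr1c14 and Gsta3 the highest value is + dox 3, and in Ahr, Hmox1 and Gstm5 − dox 1 lies above the other − dox arrays.

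Leaving out the arrays that stood apart changed which genes were called. Because + dox 1 and − dox 1 were chosen for standing apart from their groups, leaving them out narrows the spread within groups. Adjusted p-values of the fits without them can therefore be too small. Without + dox 1, 7 of the 40 genes were called higher (17.5%, against 5.23% of all genes) and 1 lower (2.50%, against 3.84%). The genes added were Mgst1 with a change of 4.25 (adjusted p = 0.0157), Gsta4 with 3.86 (0.0182) and Akr1c14 with 3.75 (0.0144). These 3 changes lay between 1.45 and 2.29 without + dox 3, with adjusted p-values of 0.333 to 0.454.

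Without − dox 1, 6 genes were called higher (15.0%, against 3.95% of all genes) and 3 lower (7.50%, against 2.31%). The added genes that were higher were Hmox1 (1.11, adjusted p = 0.0273), Gstm5 (1.06, adjusted p = 0.0305) and Ahr (1.71, adjusted p = 0.0275), and those that were lower were Gstt2 (−0.70, adjusted p = 0.0217) and Akr1c12 (−0.69, adjusted p = 0.0310), while Nqo1 was no longer called (1.87, adjusted p = 0.0506). In − dox 1 the macrophage marker Cd68 stood at 7.14, against 4.91 and 4.82 in − dox 2 and 3 and 6.40 to 7.12 in + dox cells. It too was highest in − dox 1 among the − dox arrays, as were Ahr, Hmox1 and Gstm5. This order was not particular to them: Mgst1, Gstm1, Mitf, Klf4, Krt10 and Kdr also had it, whereas Gsr and Sox2 were lowest in − dox 1. Of the other immune markers, only Cd79a was highest in − dox 1, over a narrow range (4.75, 4.70 and 4.58). Itgam was lowest in − dox 1 (3.20, against 3.26 and 3.33), as was Cd3e (5.45, against 5.63 and 5.47). Adgre1 (4.16, 4.02 and 4.28) and Ptprc (2.91, 2.78 and 2.92) were highest in − dox 3. The part of such cells in these results was not tested.

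Without both arrays, 12 genes were called higher (30.0%, against 10.3% of all genes) and 3 lower (7.50%, against 9.77%). The 12 were Nqo1, Gss, Mgst3, Tiparp, Mgst1 (4.78, adjusted p = 0.000552), Gsta4 (3.84, adjusted p = 0.00711), Akr1c14 (3.76, adjusted p = 0.00532), Ahr (1.88, adjusted p = 0.00460), Gstm5 (1.20, adjusted p = 0.00357), Hmox1 (1.18, adjusted p = 0.00795), Mgst2 (0.88, adjusted p = 0.0483) and Gpx1 (0.55, adjusted p = 0.0211). The 3 lower genes were Akr1c13, Gstt2 and Akr1c12. In the plot of shares by arrays, the share of the 40 genes called higher lies above that of all genes in each of the 8 fits, and the share called lower does so in 2 of the 8. These fits share arrays and are no independent repeats, and the genes were chosen with earlier results of these data known.

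**Figure D4:**
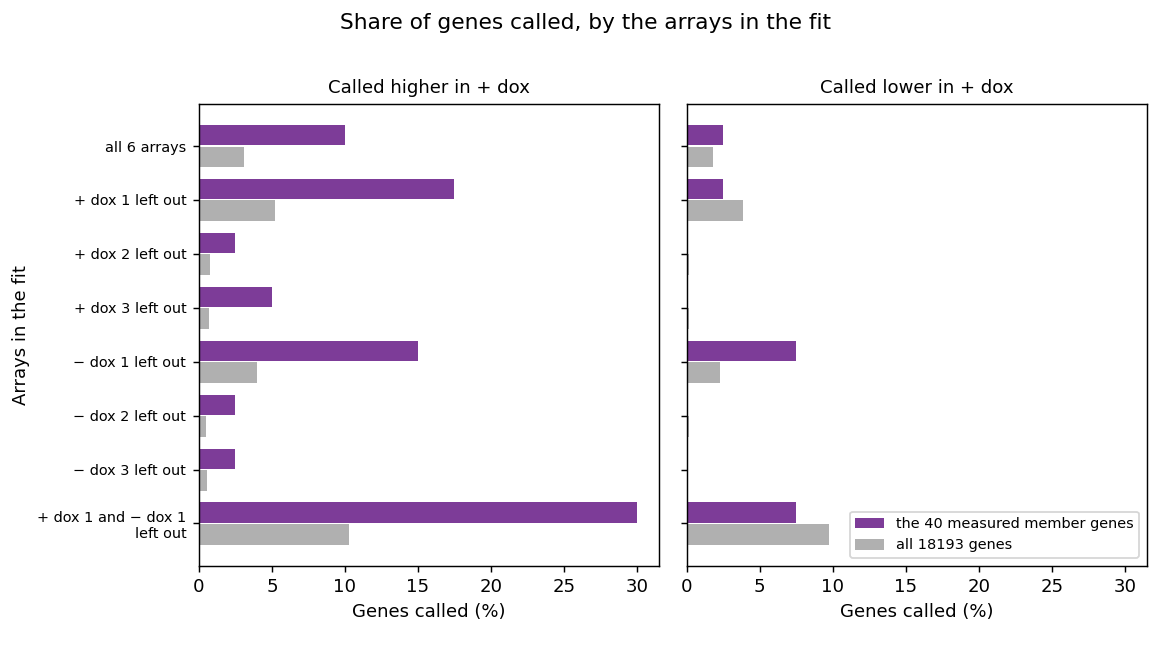
Share of genes called higher (left) and lower (right) in + dox (horizontal axes, percent) by the arrays in the fit (vertical axis), for the 40 measured genes in purple and all 18193 genes in grey. The share called higher is 10% against 3.07% with all 6 arrays and 30.0% against 10.3% without + dox 1 and − dox 1.

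Other genes of the same pathways were followed in 6 lists, with 132 measured genes in all, of which 7 were called higher (5.30%, against 3.07% of all genes) and 1 lower (0.758%, against 1.80%). The lists were chosen with earlier results of these data known, so these shares describe the lists and are not independent support. Of 40 further NRF2-linked genes 1 rose, Aldh3a1, and 1 fell, Tkt, with a median change of −0.06. Of 21 further glutathione genes 2 rose, Ggct and Hagh, and 0 fell, with a median of 0.20. Of 17 further transferases 1 rose (Gstt3, median 0.04), of 10 further aryl hydrocarbon receptor genes 1 rose (Aldh3a1 again, median −0.03), of 16 further aldo-keto and short-chain reductases 1 rose (Dhrs1, median −0.04), and of 29 further phase I and II enzymes 2 rose (Cyp3a13 and Nat2, median 0.13). In the last 4 lists 0 genes fell.

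Aldh3a1 oxidises aldehydes from lipid peroxidation and is a target of both NRF2 and the aryl hydrocarbon receptor. It read 10.25, 11.49 and 11.68 in + dox and 3.77, 3.68 and 3.79 in − dox cells, a rise of 7.39 (SE 0.36, adjusted p = 0.000379) from under the lower quartile. Cyp3a13, a drug-metabolising cytochrome P450, also came from there (3.01, 3.12 and 2.67) and reached 7.15, 8.33 and 8.11, a rise of 4.93 (SE 0.31, adjusted p = 0.00111). All 3 + dox arrays of both genes lay above the − dox arrays, with + dox 1 the lowest of the 3.

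Ggct turns gamma-glutamyl amino acids into oxoproline in the turnover of glutathione. It stood at 10.66, 12.98 and 12.60 against 9.36, 9.26 and 8.65, with + dox 1 the lowest + dox array. Its rise of 2.99 (SE 0.59, 7.94-fold, adjusted p = 0.0437) was 2.24 with the mean of its probe sets (adjusted p = 0.0675) and 3.70 without + dox 1 (adjusted p = 0.00172), and each other fit without 1 array lost the call (adjusted p = 0.0506 to 0.164). Hagh, a glyoxalase that releases glutathione from methylglyoxal adducts, read 10.39, 10.66 and 10.68 against 9.52, 8.97 and 8.97 and rose by 1.42 (SE 0.18, 2.68-fold, adjusted p = 0.0143). All 3 + dox arrays of Hagh lay above the − dox range.

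Gstt3, a theta class transferase, rose by 1.10 (2.14-fold, adjusted p = 0.0284), from 6.05, 6.46 and 6.12 to 6.97, 7.50 and 7.46. Dhrs1, a short-chain reductase, rose by 2.24 (4.71-fold, adjusted p = 0.00725), from 8.76, 8.80 and 8.34 to 10.45, 11.23 and 10.93. Nat2, an N-acetyltransferase of aromatic amines, rose by 0.96 (1.95-fold, adjusted p = 0.0245), from 6.97, 7.13 and 7.21 to 7.78, 8.27 and 8.15. None of these 3 genes overlapped between the groups. Tkt, the transketolase of the pentose phosphate pathway, which supplies NADPH, fell from 12.56, 12.27 and 12.22 to 11.78, 11.70 and 11.56, a change of −0.67 (SE 0.13, adjusted p = 0.0386). The calls of Hagh, Gstt3, Nat2 and Tkt were lost without + dox 2, + dox 3, − dox 2 or − dox 3 (adjusted p = 0.0647 to 0.144).

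**Figure D5:**
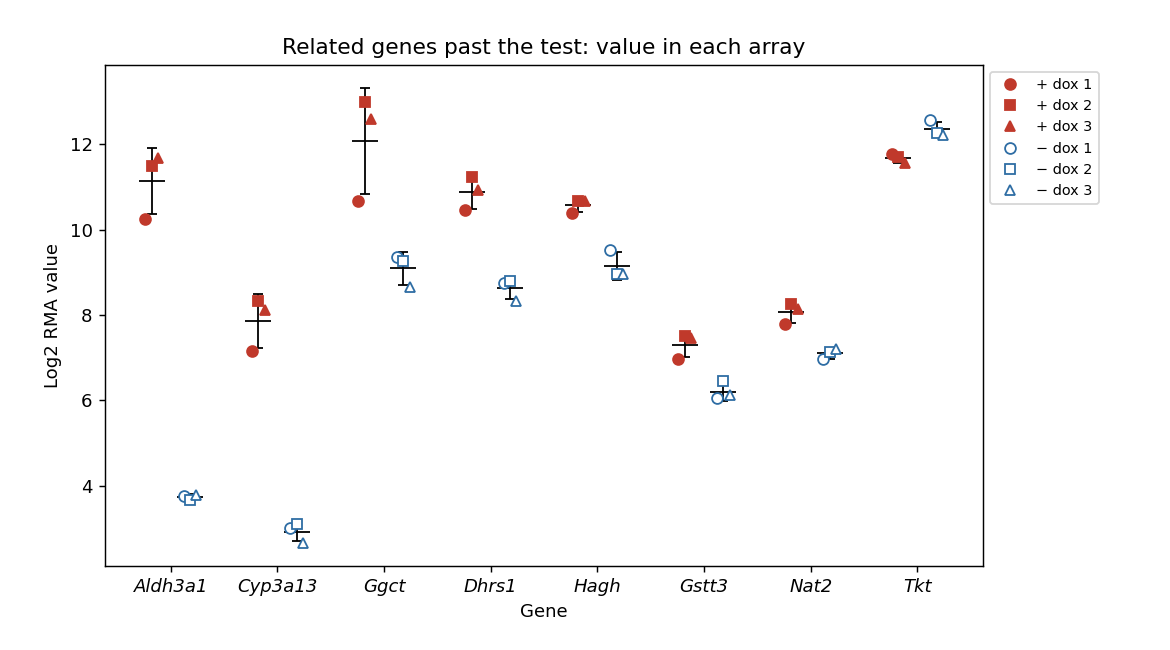
The 8 called genes of the related lists (horizontal axis) with the log2 RMA value of each array (vertical axis); filled red symbols are + dox, open blue symbols − dox, and black lines the mean ± SD of 3 arrays. Aldh3a1 and Cyp3a13 lie under 4 in every − dox array and above 7 in every + dox array, and Tkt is the gene that lies lower in + dox.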

How the data were processed

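Total RNA of 6 samples of 4434 cells at day 20, 3 + dox and 3 − dox, was hybridised to Affymetrix whole-genome mouse arrays, and samples were grouped by their labels. The deposited values are log2 expression values that the authors made from the scanner files with RMA, which corrects background, quantile normalises the arrays and summarises probe sets, using Chipster. Its version and the probe grouping (chip definition file) are not given in the sources used here, and no scanner files were used here. RMA makes array distributions alike, so a shift of all genes would not be seen, and it compresses changes near the low end of the scale.

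There were 45101 probe sets in the table and 0 missing values, and 0 columns of sample values were left unused. Gene names came from the platform annotation, which gave 1 gene for 34945 probe sets, several for 932 and none for 9160, and 64 array controls were left out. Entrez identifiers matched the RefSeq table (GRCm38.p6) for 34741 probe sets and changed 0 symbols. For each of 18193 genes the probe set whose mean over the 6 arrays was highest stood for the gene.

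The comparison of + dox with − dox used limma 3.58.1 (lmFit, eBayes; R 4.3.3) with group as its single term, two-sided p-values adjusted by Benjamini-Hochberg over all genes and a call at 0.05, and intervals are 95% intervals of that fit. The steps were tested on simulated data. The members, the related lists, the markers and the motifs were chosen with earlier results of these data known, so no p-value was adjusted over a list alone and no list was tested as a set. All 44 member genes are named, called genes with full statistics, and of each related list up to 4 called genes with the largest change. Precision is limited by the number of arrays. Alternatives were a replicate block, other values per gene, filters on dim genes at 20% and 40%, the trend and robust options of eBayes, median centring or quantile normalisation of the columns, a threshold of 0.01 and leaving out arrays.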

Additional observations from a re-analysis of the deposited data

How the results depend on the processing

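The arrays used set the number of calls more than any other choice. With all 6 arrays 4 of the 40 genes were called higher and 1 lower, and the fits without 1 array gave 1 to 7 higher and 0 to 3 lower. The share of all genes called moved too. It was 3.07% higher and 1.80% lower with all 6 arrays. Without 1 array it ran from 0.495% to 5.23% higher and from 0.126% to 3.84% lower. Without both arrays numbered 1 there were 12 and 3 (30.0% and 7.50%, against 10.3% and 9.77% of all genes). A threshold of 0.01 gave 1 (Mgst3, 2.50%, against 0.555% of all genes) and 0 (against 0.148%). A replicate block gave 2 (Gss, adjusted p = 0.0407, and Mgst3) and 0, with adjusted p-values of 0.0538 for Nqo1, 0.0619 for Tiparp and 0.0838 for Akr1c13, and of the related genes it ended the calls of Hagh (0.0634), Tkt (0.0691) and Ggct (0.0926). The numbers were not taken as pairs because the labels and methods do not say that equal numbers pair samples. Deviations from the group means of same-numbered arrays correlated at −0.12, −0.22 and 0.08 for numbers 1, 2 and 3. Of the 3 numbers, 0 matched best with itself. With 3 arrays per group, of which some stood apart, these values cannot decide whether the samples are pairs. Each other setting gave 4 and 1, with 34 and 31 genes left after the filters at 20% and 40%, which therefore gave no value for the others. In these settings 2.34% to 4.57% of all genes or probe sets tested were called higher and 1.31% to 3.16% lower. Mgst3 was called in all 16 settings tried for a single gene, while Gss lost the call in 3, Tiparp and Akr1c13 in 5 each and Nqo1 in 6, mostly in fits with fewer arrays.

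Over all settings, 550 of the values of the 40 genes kept their sign, after rounding to 2 decimals, and their side of the threshold, 7 more rounded to 0 and have no sign, 18 moved past the threshold, 19 fell short of it and 31 changed sign. The 31 sign changes were all in genes with a change between −0.17 and 0.12. Without both arrays numbered 1 the changes were 0.23 for Nfe2l2, −0.05 for Keap1, −0.05 for Gclc, −0.03 for Srxn1, −0.02 for Gpx2, −0.01 for Gpx3, 0.19 for Gstm1 and −0.01 for Cyp1b1. With the probe set of largest variance they were −0.03 for Keap1 and −0.23 for Cyp1b1, and with the mean of all probe sets −0.06 for Cyp1b1. The fits without 1 array ranged from −0.19 to 0.16 for Nfe2l2, −0.07 to 0.23 for Keap1, −0.13 to 0.16 for Gclc, −0.07 to 0.11 for Srxn1, −0.06 to 0.10 for Gpx2, −0.04 to 0.22 for Gpx3, −0.11 to 0.06 for Gsta2, −0.29 to 0.23 for Gstm1, −0.02 to 0.13 for Gstp1, −0.63 to 0.16 for Gstt1, −0.09 to 0.02 for Ahrr and −0.01 to 0.06 for Cyp1b1. The cause of these sign changes was not tested.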

Other observations

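Probe sets that the annotation gives to several genes stood outside the rule and were not tested. Over all genes, 14.3% did not overlap and were higher in + dox, and 12.6% did not overlap and were lower. The 5 probe sets shared by Prdx1, a peroxiredoxin, and Gm21399 had changes of 0.11 to 0.40, and the groups did not overlap in 2 of them (0.40 and 0.30). In these 2 the lowest + dox values were 12.94 and 13.02, close to the highest − dox values of 12.92 and 12.95. The 5 probe sets are assigned to the same genes and are not independent. The probe set shared by Gsta1, Gsta2 and Gm3776 read 3.95, 3.89 and 4.49 in + dox and 3.71, 3.85 and 3.64 in − dox cells, a change of 0.38. The probe set shared by Akr1c12 and Akr1c13 read 7.47, 7.14 and 7.49 against 7.76, 8.32 and 8.35, a change of −0.78, and every + dox array lay below every − dox array.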
